A study of Mus musculus with 9 samples.

Results

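Messenger RNA of the class 3 semaphorins, the neuropilins and the plexins was examined in NIH 3T3 cells, a mouse embryonic fibroblast line. The 10 genes are the secreted ligands Sema3a, Sema3c, Sema3d, Sema3e and Sema3f, the neuropilins Nrp1 and Nrp2, and the plexins Plxna1, Plxna2 and Plxnd1. They are 10 of the 19935 genes that the arrays measured with a probe set of a single gene symbol. Each of the 10 has 1 such probe set, so no choice between probe sets was needed. The family was chosen by membership, but with earlier results of these same arrays known, so the levels in all 3 groups count as values used in the choice. Their own differences are therefore given as a description, with a standard error and no p-value. Counts of the 10 genes that passed a threshold are likewise a description, from which nothing is read. Single p-values are given for genes outside the set. The lists of pathway genes were also drawn up with earlier results known, so their p-values are not free of that choice.

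The 9 arrays (Affymetrix Mouse Gene 1.0 ST) form 3 groups of 3 biological replicates. Control cells stably carried the pLKO.1 control vector, Net knockdown cells an shRNA against Net (gene Elk3), and Sap-1 knockdown cells an shRNA against Sap-1 (gene Elk4). Net and Sap-1 are ETS-domain transcription factors that act together with serum response factor. All groups had attached to fibronectin for 2 hours, had been starved of serum overnight and had received bovine serum for 1 hour, with a concentration of 10% according to the protocols of the samples and 20% according to the series text. The plots label the knockdown groups Net shRNA and Sap-1 shRNA. The labels do not give the number of independently transduced lines.

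Class 3 semaphorins are secreted guidance proteins first studied as repellents of growing axons, and they also act on endothelial cells and fibroblasts. Most of them bind a neuropilin, which holds the ligand but has only a short cytoplasmic tail, and a plexin in the same complex carries the signal into the cell through small GTPases and the actin cytoskeleton. Sema3A prefers neuropilin-1 and Sema3F neuropilin-2, Sema3C can use both, and Sema3E can bind plexin-D1 without a neuropilin. Neuropilins are also co-receptors of vascular endothelial growth factors.

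Values are log2 levels after RMA (background subtraction, a common distribution for all arrays and a summary over the probes of a probe set), so a difference of 1 is a doubling. Array medians ran from 7.47 to 7.54. The correlation over all probe sets was 0.9981 to 0.9992 within groups and 0.9879 to 0.9947 between them. Elk3 was lower by 25.5% in Net knockdown cells than in control (log2 difference -0.42, SE 0.036) and Elk4 by 65.5% in Sap-1 knockdown cells (-1.54, SE 0.042). Elk4 was also lower by 26.4% in Net knockdown cells and Elk3 by 8.23% in Sap-1 knockdown cells, so both knockdown groups had less mRNA of both factors. Fibroblast markers stood high, with a median over the 12 markers of 12.75 to 13.01 on every array, while the medians of endothelial, neuronal, glial, macrophage and epithelial markers lay between 6.34 and 7.26.

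Genomic sequence upstream of the 3 genes whose group means spread most, Sema3c, Nrp2 and Nrp1, is shown because Net and Sap-1 bind DNA at sites with a GGAA core. The sequences are the 250 bases before the gene start in RefSeq (GRCm38.p6, all on the + strand), and capitals mark GGAA, or TTCC where the core lies on the opposite strand. Sema3c lies at chr5:17574566-17574815, Nrp2 at chr1:62703067-62703316 and Nrp1 at chr8:128358823-128359072.
Sema3c: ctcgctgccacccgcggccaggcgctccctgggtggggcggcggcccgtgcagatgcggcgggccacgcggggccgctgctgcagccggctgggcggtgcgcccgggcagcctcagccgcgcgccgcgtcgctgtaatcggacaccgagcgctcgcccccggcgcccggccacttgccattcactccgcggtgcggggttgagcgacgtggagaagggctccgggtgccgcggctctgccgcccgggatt
Nrp2: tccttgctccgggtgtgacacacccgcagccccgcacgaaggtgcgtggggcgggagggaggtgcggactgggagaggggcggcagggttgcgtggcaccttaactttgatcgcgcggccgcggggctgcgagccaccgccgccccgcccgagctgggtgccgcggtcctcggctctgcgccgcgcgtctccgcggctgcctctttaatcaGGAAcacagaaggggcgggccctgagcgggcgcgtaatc
Nrp1: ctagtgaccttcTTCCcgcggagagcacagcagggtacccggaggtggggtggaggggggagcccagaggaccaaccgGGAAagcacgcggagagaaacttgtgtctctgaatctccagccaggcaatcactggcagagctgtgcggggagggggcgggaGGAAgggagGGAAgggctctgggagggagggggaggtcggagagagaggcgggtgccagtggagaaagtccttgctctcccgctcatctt

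The Sema3c sequence holds 0 GGAA cores, that of Nrp2 1 and that of Nrp1 4, where 93.4% of 32851 RefSeq windows of this length hold at least 1 and the median is 3. Sema3c and Nrp2 are rich in CpG, with 39 and 32 CpG dinucleotides and a GC content of 78.4% and 72.4%, against a median of 6 and 52.4% over all windows. RefSeq windows were found for 8 of the 10 genes (Sema3f and Plxna1 had none). Among the other 5, Sema3a held 4 GGAA cores, Sema3d 5, Sema3e 4, Plxnd1 5 and Plxna2 0. Sema3a, on the same stretch of chromosome 5, differs from Sema3c in composition, with 2 CpG dinucleotides and a GC content of 40.8%. None of the 8 windows holds the longer ETS motif CCGGAAG (6.91% of all windows do, on either strand, and it contains GGAA), the SRF CArG box (1.47%) or the AP-1 motif TGANTCA (6.75%). These letters describe the windows and say nothing of which factors bind there or elsewhere.

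Sema3c, a ligand of both neuropilins known from the heart outflow tract, was the only one of the 10 genes that differed from control by 2-fold or more, and it did so in opposite directions in the knockdowns. Its level was 8.98, 9.06 and 9.45 on the control arrays, 7.69, 7.94 and 7.65 on the Net knockdown arrays and 12.01, 12.06 and 12.19 on the Sap-1 knockdown arrays. No array of any group overlapped with another group, and the widest spread was within control. In Net knockdown cells Sema3c was lower than control by 1.41 on the log2 scale (log2 difference -1.41, SE 0.115), a level 62.3% lower. In Sap-1 knockdown cells it was 7.58-fold higher than control (log2 difference 2.92, SE 0.115), and between the knockdowns the difference was 20.1-fold. By absolute difference it stood at place 78 of 19935 genes in the Net comparison, place 19 in the Sap-1 comparison and place 4 between the knockdowns, where 0.898%, 1.54% and 1.8% of all genes reached 2-fold. The array medians were close together in all groups. In lysates of whole cultures, fewer cells with the transcript and less transcript per cell cannot be told apart.

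**Figure D1:**
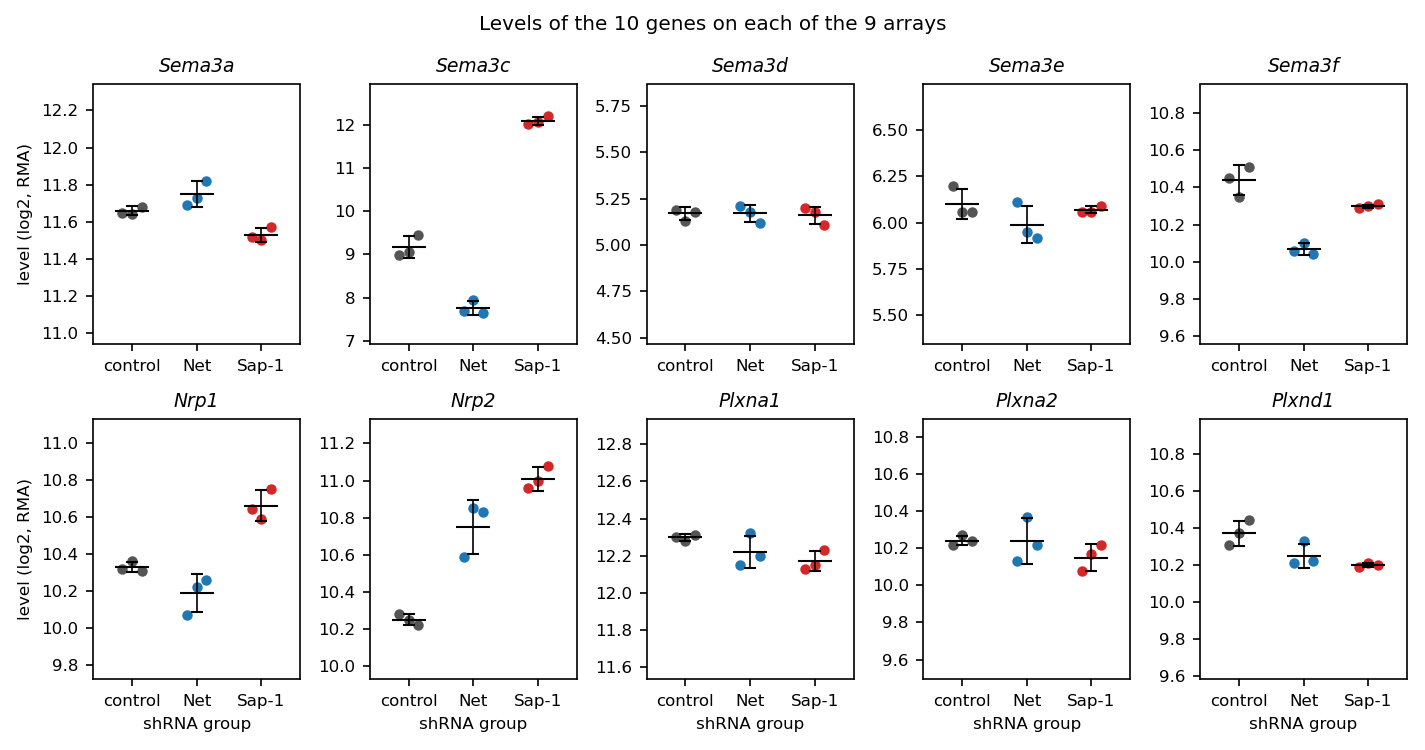
Log2 level (RMA) of each of the 10 genes on the control, Net knockdown and Sap-1 knockdown arrays. Points are single arrays, horizontal bars the group mean and error bars the SD (n = 3). The Sema3c axis spans 6 log2 units and the others 1.4, and Sema3c runs from 7.65 in Net knockdown to 12.19 in Sap-1 knockdown cells.

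Sema3f, a ligand that prefers neuropilin-2, was highest in control and lowest in Net knockdown cells. The control arrays read 10.45, 10.35 and 10.51, the Net knockdown arrays 10.06, 10.1 and 10.04 and the Sap-1 knockdown arrays 10.29, 10.3 and 10.31. The 3 groups did not overlap, though the lowest control array lay only 0.04 above the highest Sap-1 knockdown array. The difference from control was -0.37 (SE 0.046) in Net knockdown and -0.14 (SE 0.046) in Sap-1 knockdown cells, a level 22.7% and 8.99% lower. Sema3c and Sema3f were thus both lower than control in Net knockdown cells, while in Sap-1 knockdown cells Sema3c was higher and Sema3f lower.

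Sema3a, the ligand that prefers neuropilin-1 and collapses axonal growth cones, was high in all groups and differed little. Its level was 11.65, 11.64 and 11.68 in control, 11.69, 11.73 and 11.82 in Net knockdown and 11.52, 11.5 and 11.57 in Sap-1 knockdown cells. The order was Net knockdown, control, Sap-1 knockdown, the reverse of the order of Sema3c, but over a range of 0.22. No arrays overlapped, though the lowest Net knockdown array (11.69) and the highest control array (11.68) were nearly tied. The differences from control were 0.09 in Net knockdown and -0.12 in Sap-1 knockdown cells (SE 0.045 for both).

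Sema3d and Sema3e were dim, below the median of all probe sets, and their arrays overlapped between all groups. Sema3d ran from 5.11 to 5.21 over all 9 arrays, with differences from control of 0 in both knockdowns (SE 0.043) and intervals within 0.1 of no difference on either side. Sema3e, the plexin-D1 ligand, ran from 5.92 to 6.2, with differences of -0.11 in Net knockdown and -0.04 in Sap-1 knockdown cells (SE 0.057). The deposited table holds no detection calls, so neither gene can be called absent, and changes of a very dim transcript may not be visible in these values.

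Nrp2 was higher in both knockdowns than in control. Control arrays read 10.28, 10.25 and 10.22, Net knockdown arrays 10.59, 10.85 and 10.83, and Sap-1 knockdown arrays 10.96, 11 and 11.08. The groups did not overlap, and the lowest Net knockdown array lay 0.3 above the highest control array. The difference from control was 0.5 (SE 0.067) in Net knockdown cells, 1.42-fold, and 0.76 (SE 0.067) in Sap-1 knockdown cells, 1.7-fold. Both comparisons use the same control arrays. Between the knockdowns Nrp2 differed by -0.26 (SE 0.067, Net minus Sap-1), with the nearest arrays 0.11 apart.

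Nrp1 was highest in Sap-1 knockdown cells and lowest in Net knockdown cells. Its level was 10.32, 10.36 and 10.31 in control, 10.07, 10.22 and 10.26 in Net knockdown and 10.64, 10.59 and 10.75 in Sap-1 knockdown cells. The Sap-1 knockdown arrays lay at least 0.23 above control, whereas control and Net knockdown arrays came within 0.04 of each other. The difference from control was 0.33 (SE 0.059) in Sap-1 knockdown cells, 1.26-fold, and -0.14 (SE 0.059) in Net knockdown cells. The order of the groups, Sap-1 knockdown above control above Net knockdown, was that of Sema3c, over a range of 0.47 against 4.33.

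The plexins differed little, with group means at most 0.17 apart. Plxna1, which pairs with neuropilins as a signalling receptor, read 12.3, 12.28 and 12.31 in control, 12.15, 12.32 and 12.2 in Net knockdown and 12.13, 12.15 and 12.23 in Sap-1 knockdown cells. Net knockdown arrays overlapped with both other groups. The differences from control were -0.07 and -0.12 (SE 0.05) in Net knockdown and Sap-1 knockdown cells.
Plxna2, a close relative, ran from 10.08 to 10.37 over the 9 arrays with every pair of groups overlapping, and its differences from control were 0 in Net knockdown and -0.09 in Sap-1 knockdown cells (SE 0.061).
Plxnd1, the receptor of Sema3E and well known in vessels, read 10.31, 10.37 and 10.44 in control, 10.21, 10.33 and 10.22 in Net knockdown and 10.19, 10.21 and 10.2 in Sap-1 knockdown cells. Here the Sap-1 knockdown arrays lay below control (-0.17, SE 0.047), and the Net knockdown arrays overlapped with control (-0.12, SE 0.047).

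**Figure D2:**
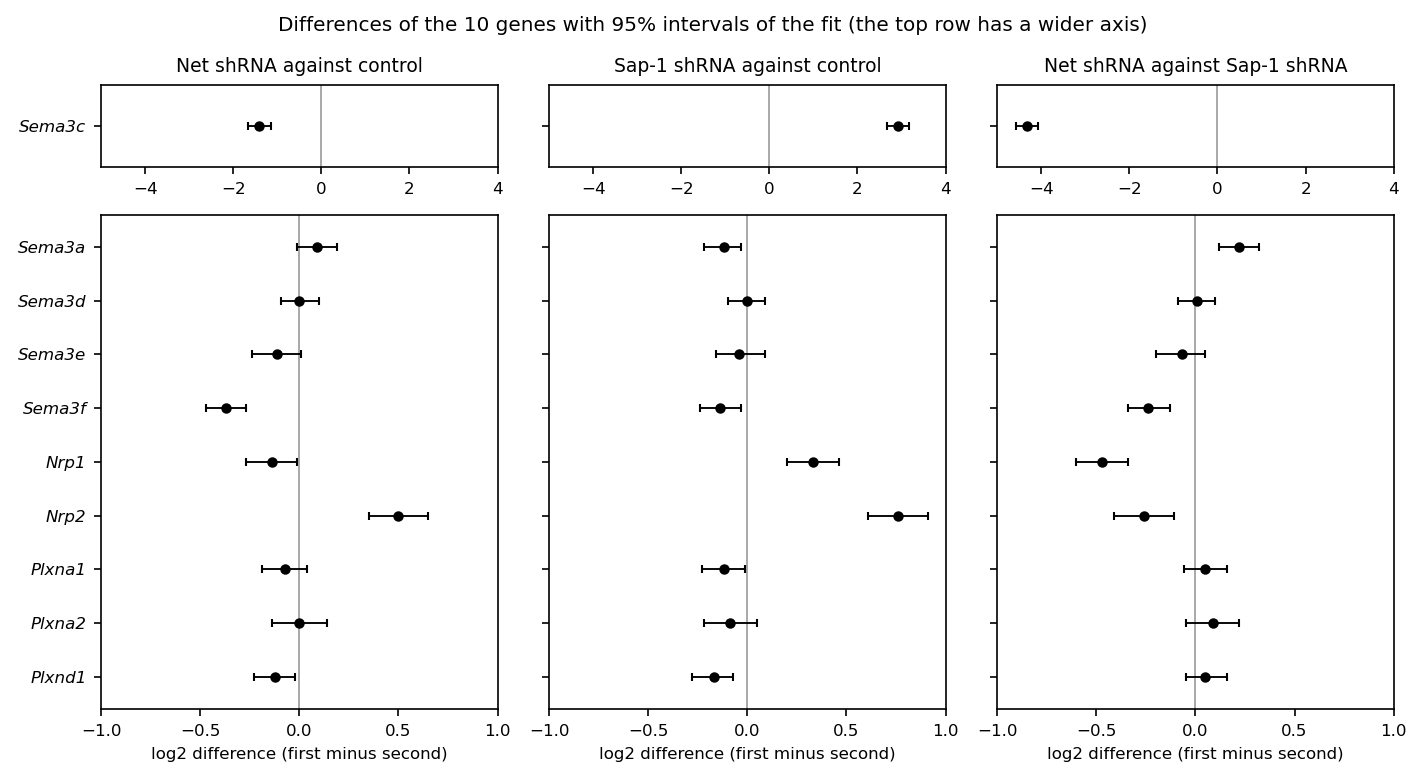
Log2 differences of the 10 genes in the 3 comparisons named above the panels. Points are fitted differences and bars their 95% intervals from the fit over 9 arrays. Sema3c has its own, wider axis, and among the other genes Nrp2 reached the largest difference, 0.76 in Sap-1 knockdown cells.

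At a Benjamini-Hochberg adjusted p under 0.05 over all genes (limma), 3 of the 10 genes passed in Net knockdown cells (Nrp2 higher, Sema3c and Sema3f lower), where 23.6% of all genes passed. In Sap-1 knockdown cells 5 passed (Sema3c, Nrp1 and Nrp2 higher, Sema3f and Plxnd1 lower), with 29.7% of all genes, and between the knockdowns 5 passed (Sema3a higher in Net knockdown, Sema3c, Sema3f, Nrp1 and Nrp2 lower), with 27.5%. Nothing is read from these counts, since the genes were taken with such results known. The Sap-1 count was 3 without the third control array, 3 without the first Sap-1 knockdown array and 3 after centring every array at its median, because Sema3f and Plxnd1 no longer passed. The arrays of the groups did not overlap for 5 of the 10 genes in Net knockdown cells (34.3% of all genes), for 7 in Sap-1 knockdown cells (41% of all genes; 3 higher, against 20.8%, and 4 lower, against 20.2%) and for 6 between the knockdowns (37.4%; 2 higher in Net knockdown, against 19.6%, and 4 lower, against 17.8%). The median difference of the 10 genes was -0.09 in Net knockdown and -0.06 in Sap-1 knockdown cells, beside 0 and -0.02 over all genes.

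The ligand genes Sema3d, Sema3a, Sema3e and Sema3c lie in this order on chromosome 5, with only a few measured genes between them. Sema3c stood apart from the other ligand genes of this stretch, whose differences from control stayed between -0.12 and 0.09. Of these, only Sema3a was bright, and changes of the dim Sema3d and Sema3e may not be visible. The gene next to Sema3c, Hgf, encodes hepatocyte growth factor and is named here after its values were seen. Hgf fell by 2.22 in Sap-1 knockdown cells, where Sema3c was higher (SE 0.074, limma adjusted p = 3.6e-09). Its arrays read 10.5, 10.64 and 10.66 in control, 10.29 on each Net knockdown array and 8.23, 8.36 and 8.56 in Sap-1 knockdown cells. In Net knockdown cells Hgf fell by 0.32 (SE 0.074, limma adjusted p = 0.0089). Cacna2d1, a calcium channel subunit gene on the far side of Hgf, fell by 0.31 in Net knockdown cells and rose by 0.23 in Sap-1 knockdown cells (SE 0.049, limma adjusted p = 0.00087 and 0.0042), the directions seen for Sema3c. Cd36, on the other side of Sema3c, was dim and lay at -0.04 and 0.12 (limma adjusted p = 0.68 and 0.11). Neighbours were counted as expressed at a mean level at or above the median of all probe sets. Over the 50 nearest expressed neighbours of Sema3c the median difference was 0.02 in Net knockdown and 0 in Sap-1 knockdown cells, and none of the 50 differed from control as much as Sema3c in either comparison.

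**Figure D3:**
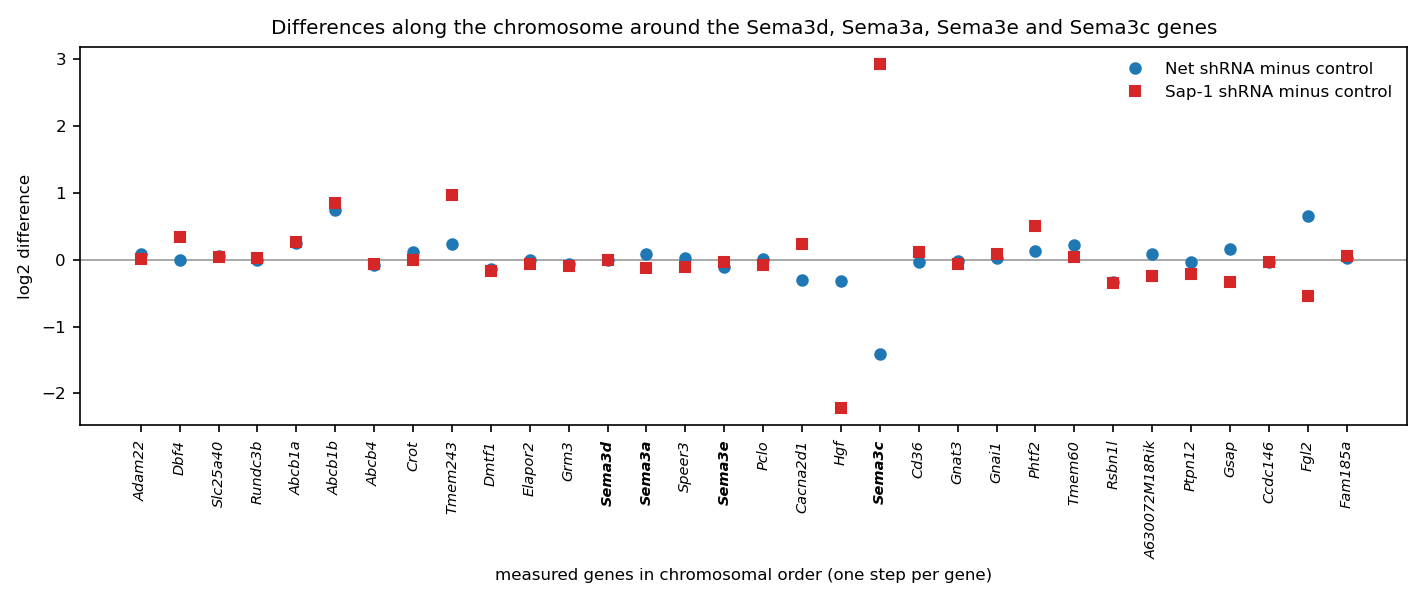
Log2 difference from control of the measured genes around Sema3d, Sema3a, Sema3e and Sema3c (bold), in chromosomal order with one step per gene. Circles show Net knockdown and squares Sap-1 knockdown cells. Sema3c stands at -1.41 and 2.92, beside Hgf at -0.32 and -2.22.

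The neighbourhoods of the neuropilin genes were less even. Over all genes, dim ones included, 13.4% were higher and 10.2% lower in Net knockdown cells, and 13.9% were lower in Sap-1 knockdown cells. The neighbours were taken only from genes at or above the median level of all probe sets, where calls are more frequent. When only the 10767 genes that bright were fitted, 2701 were higher and 2117 lower in Net knockdown cells, and 2574 were lower in Sap-1 knockdown cells. Of the 50 nearest expressed neighbours of Nrp2 on chromosome 1, 27 were lower and 3 higher in Net knockdown cells (median -0.17), where Nrp2 itself was higher. With the median of its neighbours taken off on each array, Nrp2 lay at 0.69 in Net knockdown and 0.66 in Sap-1 knockdown cells, and the difference between the knockdowns, -0.26, became 0.02. Of the 50 neighbours of Nrp1 on chromosome 8, 26 were higher and 2 lower in Net knockdown cells (median 0.14), and Nrp1 lay at -0.28 there with their median taken off. Plxna2, elsewhere on chromosome 1, lay at 0.17 instead of -0.09 in Sap-1 knockdown cells after the same step, since 31 of its 50 neighbours were lower there, and at -0.24 instead of 0.09 between the knockdowns. The part of these regional shifts in the levels of the neuropilin and plexin genes was not tested.

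Genes with the most similar profile were found by the root mean square difference of centred levels over the 9 arrays. For Sema3c these were Car6 (0.242), a secreted carbonic anhydrase gene, Serpinb9b (0.37) and Cdsn (0.406), which encodes corneodesmosin. Serpinb9b belongs to a family of close copies and is uncertain. Car6 stood at 9.69 in control, 8.03 in Net knockdown and 12.17 in Sap-1 knockdown cells, and Cdsn at 10.09, 8.58 and 12.21. For Nrp2 the closest genes were Naip2 (0.076), Mcm3 (0.078), a subunit gene of the replicative helicase, and Prps2 (0.078). For Nrp1 they were Arl14ep (0.038), Gramd1b (0.039) and Soga3 (0.04), whose group means, like those of Nrp1, differed by less than 0.5.

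Other genes of the semaphorin pathway were taken by role, 74 in all, of which 71 were measured (Rhod, Pak1 and Rock2 were not analysed here). These lists too were made with earlier results of the arrays known, so their counts are a description. Of these 71, 27 differed in Net knockdown cells (8 higher, 19 lower), 30 in Sap-1 knockdown cells (14 higher, 16 lower) and 32 between the knockdowns (14 higher and 18 lower in Net knockdown), where 23.6%, 29.7% and 27.5% of all genes did. The shares were larger among bright genes. When only the 10767 genes at or above the median level of all probe sets were fitted, 44.7% passed in Net knockdown cells, 52.2% in Sap-1 knockdown cells and 49.5% between the knockdowns, beside 28, 30 and 30 of the 52 pathway genes that bright. The pathway genes had a median difference of -0.06 in Net knockdown and -0.03 in Sap-1 knockdown cells.

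Among the 6 other plexin genes, Plxna4, the type A plexin best known from sensory axons, differed in the directions seen for Sema3c. It read 8.1, 8.09 and 8.19 in control, 7.36, 7.37 and 7.31 in Net knockdown and 8.68, 9.03 and 8.87 in Sap-1 knockdown cells, with no overlap. It fell by 0.78 in Net knockdown cells (SE 0.073, limma adjusted p = 2.3e-05) and rose by 0.74 in Sap-1 knockdown cells (SE 0.073, limma adjusted p = 1.9e-05), and the knockdowns differed by -1.51 (SE 0.073, limma adjusted p = 5.2e-08). Plxna3 fell in both, by 0.37 and 0.34 (SE 0.051), and Plxnb1 fell in Net knockdown cells by 0.2 (SE 0.042). Plxnb2, Plxnb3 and Plxnc1 passed in none of the 3 comparisons, with differences from -0.11 to 0.09.

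The other class 3 ligands, Sema3b and Sema3g, passed in no comparison (-0.12 to 0.13). Of all 15 semaphorins outside the set, 7 differed in Net knockdown cells (2 higher, 5 lower) and 6 in Sap-1 knockdown cells (1 higher, 5 lower). Over all genes 13.4% were higher and 10.2% lower in Net knockdown cells, and 15.8% were higher and 13.9% lower in Sap-1 knockdown cells. Sema5a, a transmembrane semaphorin with thrombospondin repeats, fell in Net knockdown cells from 10.22 ± 0.007 to 9.14 ± 0.08 (SD, n = 3; log2 difference -1.08, SE 0.049, limma adjusted p = 8.3e-08). Sema5a rose by 0.17 in the Sap-1 knockdown group (SE 0.049, limma adjusted p = 0.024), a difference of 0 with its neighbours' median taken off and one that no longer passed without any single control array or without the third Sap-1 knockdown array. Sema7a, which is anchored in the membrane by a lipid and signals through plexin-C1 and integrins, went the opposite way to Sema3c, with a rise of 0.62 in Net knockdown cells (SE 0.111, limma adjusted p = 0.0018) and a fall by 0.81 in Sap-1 knockdown cells (SE 0.111, limma adjusted p = 2e-04). Sema6a rose in Net knockdown cells by 0.69 (SE 0.086, limma adjusted p = 0.00017). Sema4g, Sema6c and Sema6d fell in both knockdowns, by 0.2, 0.23 and 0.3 in Net knockdown and by 0.31, 0.45 and 0.38 in Sap-1 knockdown cells. Sema6d was dim, with group means of 6.27 to 6.65. Sema4c fell by 0.15 in both (limma adjusted p = 0.044 and 0.039). In Net knockdown cells these calls were lost for Sema6c without the third control array, for Sema4g without the first or second control or the first or the third Net knockdown array, and for Sema4c under 11 of the other settings, and after subtraction of the neighbours' median Sema4c lay at 0.01. In Sap-1 knockdown cells Sema4c was lost without any single control array or the first or the third Sap-1 knockdown array. Sema4b stood 0.22 lower in Net knockdown than in Sap-1 knockdown arrays (log2 difference -0.22, SE 0.058, limma adjusted p = 0.014), which needed the third array of both knockdowns.

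**Figure D4:**
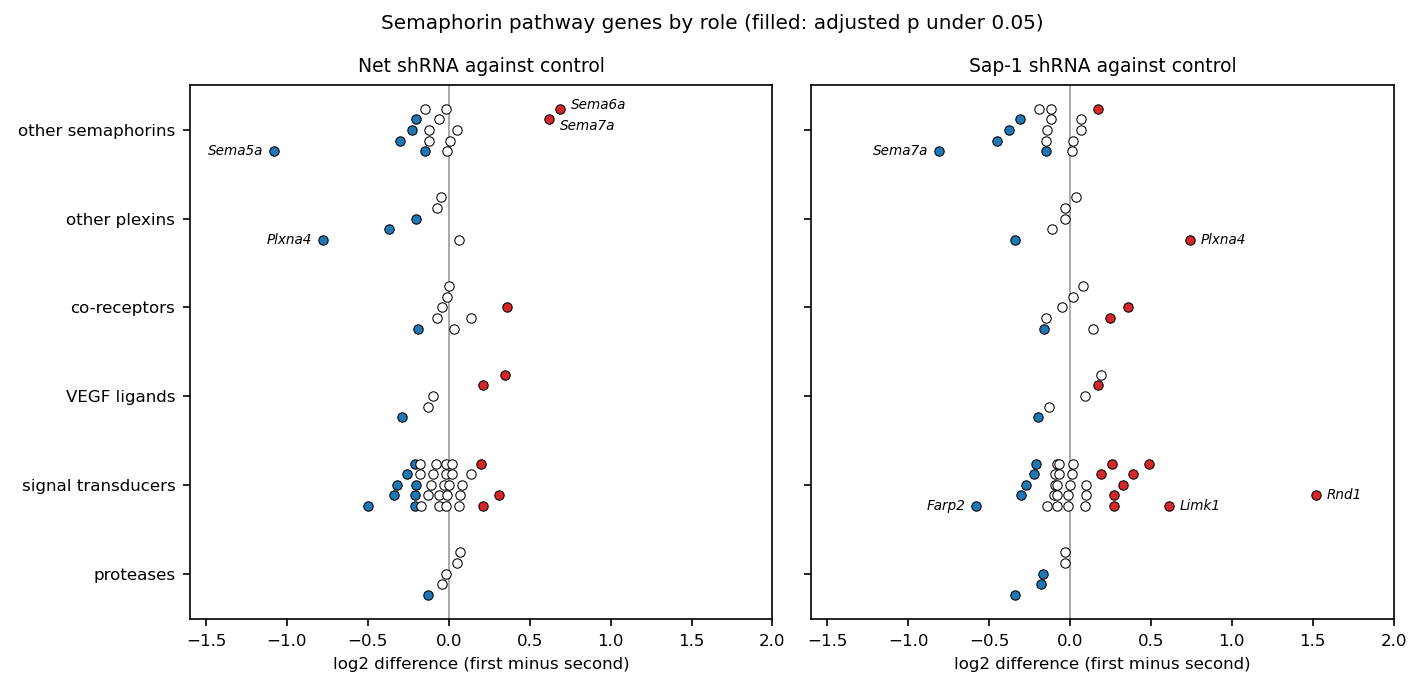
Log2 difference from control of the 71 measured pathway genes by role, in Net knockdown (left) and Sap-1 knockdown cells (right). Each point is a gene, filled red (higher) or blue (lower) where the limma adjusted p was under 0.05 and open otherwise, with vertical offsets for legibility only. Plxna4 lies on opposite sides in the 2 panels (-0.78 and 0.74), and Rnd1 rose by 1.52 in Sap-1 knockdown cells.

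Signal transducers of the receptors differed in both directions. Of the 32 measured, 3 rose and 8 fell in Net knockdown cells, and 9 rose and 5 fell in Sap-1 knockdown cells, beside the same shares of all genes (13.4% and 10.2%, then 15.8% and 13.9%). Rnd1, a GTP-binding protein gene whose product binds plexin-A1, rose in Sap-1 knockdown cells from 8.03 ± 0.089 to 9.55 ± 0.108 (SD, n = 3; log2 difference 1.52, SE 0.065, limma adjusted p = 2.4e-08) and lay at 0.14 in Net knockdown cells (limma adjusted p = 0.16). Limk1, the kinase gene that acts on cofilin, rose by 0.61 in Sap-1 knockdown cells (SE 0.05). Farp2, an exchange factor gene of the plexin-A pathway, fell by 0.26 in Net knockdown and by 0.58 in Sap-1 knockdown cells (SE 0.053), the former no longer passing after subtraction of its neighbours' median.

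Dpysl3 (CRMP family), Mical2 (an actin-oxidising enzyme) and Fyn (a kinase) had the direction of Sema3c and Plxna4 in both knockdowns. Dpysl3 fell by 0.5 in Net knockdown and rose by 0.27 in Sap-1 knockdown cells (SE 0.046), and Mical2 fell by 0.34 and rose by 0.49 (SE 0.048). Fyn fell by 0.21 and rose by 0.39 (SE 0.051), the fall passing no longer without the third control array (limma adjusted p = 0.053), without the third Net knockdown array (limma adjusted p = 0.054) or with its neighbours' median taken off (-0.14, limma adjusted p = 0.078). Gipc1, whose product binds the tail of neuropilin-1, rose by 0.31 in Net knockdown cells (SE 0.059), and Rasa1 fell there by 0.32 (SE 0.06). In Sap-1 knockdown cells Gipc1 rose by 0.19 (SE 0.059, limma adjusted p = 0.029), a call lost in 5 of the other settings. Both knockdowns share the control arrays, and the direct comparison gave -0.77 for Dpysl3, -0.84 for Mical2 and -0.59 for Fyn (limma adjusted p = 3.4e-07, 2.3e-07 and 6.1e-06).

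Furin, the protease gene whose product activates class 3 semaphorins by cleavage, fell by 0.34 in Sap-1 knockdown cells (SE 0.042, limma adjusted p = 8e-05), from 11.59 to 11.25, where Sema3c was highest. Of the 5 protease genes, 3 fell in Sap-1 knockdown cells, where 13.9% of all genes were lower. Besides Furin these were Pcsk7, by 0.17, and Adamts1, by 0.18 (limma adjusted p = 0.013 and 0.03). Pcsk7 did not pass without the third control or the second Sap-1 knockdown array, and Adamts1 not without any single control array or the first or second Sap-1 knockdown array. Furin also fell in Net knockdown cells by 0.13 (limma adjusted p = 0.041), a call lost in 8 of the other settings, among them those without the second or the third control, the first or the third Net knockdown, or the first or second Sap-1 knockdown array.

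Of 8 co-receptor genes, Flt1, which encodes VEGF receptor 1, rose by 0.36 in Net knockdown and by 0.25 in Sap-1 knockdown cells (SE 0.045), and Erbb2 fell by 0.19 and 0.16 (SE 0.049). Flt1 did not pass in Sap-1 knockdown cells after subtraction of its neighbours' median. Erbb2 did not pass in Net knockdown cells without the third control array, nor in Sap-1 knockdown cells without the first or the third control array or any single Sap-1 knockdown array. L1cam, an adhesion molecule gene whose product associates with neuropilin-1, rose by 0.36 in Sap-1 knockdown cells (SE 0.048). Nrcam, of the same family, differed between the knockdowns by -0.21 (SE 0.065, limma adjusted p = 0.033), a call lost without the second or the third Net knockdown array or the first or second Sap-1 knockdown array. L1cam and Nrcam were below the median of all probe sets, with group means of 6.92 to 7.27 and 6.18 to 6.39. Kdr, the gene of VEGF receptor 2, was dim and lay at 0.03 and 0.02. Among the 5 VEGF ligand genes, Vegfa differed between the knockdowns by -0.48 (SE 0.083), Vegfb by 0.35 (SE 0.055) and Pgf, the gene of placental growth factor, by -0.22 (SE 0.05), Net knockdown minus Sap-1 knockdown. Pgf was dim, with group means of 6.26 to 6.48. Vegfd fell in Sap-1 knockdown cells by 0.2 (SE 0.041), and Vegfc rose in Net knockdown cells by 0.35 (SE 0.059) and was at -0.04 after subtraction of its neighbours' median.

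The list medians of markers of other cell types shifted by less than 0.4. Of 13 endothelial markers, which include Flt1 and Kdr, 3 were higher and none lower in Net knockdown cells. Of all genes, 13.4% were higher and 10.2% lower there. The endothelial list medians were 6.74 to 6.76 in control, 6.89 to 6.95 in Net knockdown and 6.79 to 6.91 in Sap-1 knockdown cells. The macrophage median was 6.34 to 6.44 in control, 6.58 to 6.69 in Net knockdown and 6.69 to 6.71 in Sap-1 knockdown cells. These list medians moved more than most of the markers in them. Taken marker by marker, the median difference from control was 0 in Net knockdown and -0.04 in Sap-1 knockdown cells for macrophage markers. For endothelial markers it was 0.06 and 0.01. Over all arrays the neuronal median ran from 6.68 to 6.85, the glial from 6.54 to 6.72 and the epithelial from 6.96 to 7.26. Single markers differed more. The widest ranges of group means, in the order control, Net knockdown and Sap-1 knockdown, were those of the neuronal marker Map2 (8.56, 6.96 and 9.32, the order of Sema3c), the endothelial marker Tek (6.74, 8.58 and 6.44), the macrophage marker Lyz2 (6.04, 6.84 and 7.85) and the fibroblast marker Pdgfra (12.69, 12.43 and 10.95). Next came the endothelial markers Emcn (5.73, 5.99 and 6.62) and Cdh5 (6.73, 6.92 and 7.57) and the epithelial marker Krt14 (7.22, 7.81 and 7.7). The other markers had group means less than 0.58 apart. Fibroblast markers had a median of 12.96 to 13 in control, 12.95 to 13.01 in Net knockdown and 12.75 to 12.79 in Sap-1 knockdown cells. Of the 12, 4 were lower and 0 higher in Net knockdown cells, and 5 were lower and 0 higher in Sap-1 knockdown cells. Of all genes, 10.2% and 13.9% were lower. The fibroblast markers are bright, and calls are more frequent among bright genes. When only the 10767 genes at or above the median level of all probe sets were fitted, 2117 were lower in Net knockdown and 2574 in Sap-1 knockdown cells. Levels also differed within the lists of other cell types. Pecam1, Ptprc, Gfap and Epcam had group means of 6.04 to 6.55, and other markers of the same lists stood higher. Among these, in the same order of groups, were Flt1 (9.31, 9.67 and 9.56), Cd68 (8.38, 8.61 and 8.15), Sox10 (7.45, 7.51 and 7.36) and Krt8 (8.3, 8.17 and 8.21). The part of these shifts in the levels of the semaphorin, neuropilin and plexin genes was not tested.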

How the data were processed

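Total RNA of the 9 cultures was hybridised to 1 array each. The deposited values are log2 levels that the authors computed with the RMA method; the submitters' processing notes name Affymetrix Expression Console as the software, and its version, settings and genome build are not given in the sources used here. Of 28815 probe sets, the platform annotation gave 21780 a single symbol, 1605 several and 5430 none; Entrez IDs in a RefSeq table (GRCm38.p6) changed no symbol. Single-symbol probe sets covered 19935 genes, each represented by its brightest probe set on average.

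limma 3.58.1 in R 4.3.3 fitted a mean per group over all 9 arrays (6 residual and 4.7 prior degrees of freedom), with Benjamini-Hochberg adjustment per comparison and a threshold of 0.05. Intervals are 95%. Precision is limited by the number of arrays. The biological replicates are per the labels, and p-values set a group difference against the spread between them. The number of independently transduced lines is not given, so this spread may not include differences between lines.

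The 10 genes, the pathway lists and the settings were chosen with earlier results of these data known. Named were the 10 genes, called semaphorins and plexins, from each other list and comparison the called genes with the lowest adjusted p (at most 4), and the 3 closest profiles of the 3 genes with the widest range of group means. As a check of the code, the fit was run on simulated independent values with known changes in a small part of the genes. That run does not give the error rate in these data, where many more genes differed. RefSeq windows were searched on both strands. Alternatives were a replicate block, intensity trend, fewer arrays, 3 normalizations, 2 filters, probe set means, array weights, each array left out, neighbouring genes and 2 thresholds.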

Additional observations from a re-analysis of the deposited data

How the results depend on the processing

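Of the 10 genes, 3 passed against control for Net, 5 for Sap-1, and 5 between the knockdowns. The genes were taken with such results known, so nothing is read from these counts. In Net knockdown cells the count was 5 after a further quantile normalization, 5 with array weights, 1 at 1.5-fold or more, and 3 to 4 with 1 array left out. In Sap-1 knockdown cells it was 3 after median centring, 3 at an adjusted p under 0.01, 2 at 1.5-fold or more, 7 with an intensity trend, a further quantile normalization or cyclic loess, 6 with array weights, and 3 to 5 with 1 array left out. Between the knockdowns it was 1 at 1.5-fold or more and 4 to 5 with 1 array left out. The 27, 30 and 32 pathway genes became 4, 4 and 8 at 1.5-fold or more, and the 27 became 15 at an adjusted p under 0.01. Over all genes 4714, 5921 and 5480 passed, and 510, 890 and 924 at 1.5-fold or more. Differences of Sema3c ranged from -1.5 to -1.26 in Net knockdown and from 2.83 to 3.07 in Sap-1 knockdown cells over 20 other settings, and those of Nrp2 from 0.45 to 0.69 and from 0.66 to 0.79.

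With the neighbours' median taken off, the sign of a called difference turned for Nrp2 between the knockdowns (0.02), for Sema4c in Net knockdown cells (0.01) and for Vegfc (-0.04 and 0 against control for Net and Sap-1, -0.03 between the knockdowns). Of the differences of the 10 genes that had not passed and were 0.05 or more in size, those of Plxna2 turned to 0.17 for Sap-1 against control and to -0.24 between the knockdowns, and that of Plxna1 to -0.04 between the knockdowns. The cause was not tested.

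Same-numbered arrays of different groups had correlations of deviations from -0.11 to 0.36, and arrays with other numbers from -0.432 to 0.303. Of the 9 arrays, 3 correlated best with their own number in both other groups, and these were the first arrays of the 3 groups. The main fit did not take the numbers as pairs, and whether the first arrays share an effect was not tested. With the replicate number as a block (replicate block) 4985, 6263 and 5752 genes passed, beside 4714, 5921 and 5480 without it. Among them were 3, 5 and 5 of the 10 genes and 30, 32 and 31 pathway genes. Filters on dim probe sets left 8 or 9 of the 10 genes. Without detection calls, the dim Sema3d and Sema3e have no known floor.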
